A study of Ovis aries with 36 samples.

Results

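The motor cortex was compared with the cerebellum in 9 lambs, each of which gave 1 RNA-sequencing library per region. The 18 libraries, 9 of motor cortex and 9 of cerebellum, were picked by their tissue label from the 36 libraries of the study, which also sampled hippocampus and basal ganglia. They were paired by lamb, and all 3 arms entered the comparison.

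Lambs A to E formed the supported arm: they were delivered preterm, received cannulas immediately and lived on EXTEND, an extrauterine support device, until their age was close to that of the late preterm arm. Lambs F and G, the late preterm arm, were delivered at 127 days and underwent necropsy at once. Lambs H and I, the preterm arm, underwent necropsy at once after preterm delivery, at an age that the labels do not state. Of the supported lambs 4 were female and 1 (lamb C) was male, both late preterm lambs were male, lamb H was female and lamb I was male. Each region of each lamb rests on 1 library from flash-frozen tissue.

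The motor cortex is a layered sheet of the forebrain. Its large excitatory neurons send commands for voluntary movement towards the brainstem and spinal cord. The cerebellum, which derives from the hindbrain, adjusts the timing and force of movement. Its cortex is dominated by very small granule neurons, which feed Purkinje cells, the cells that carry the output of the cerebellar cortex. Granule neurons are still being made late in gestation and are supplied by a dividing layer at the cerebellar surface, so the cerebellum matures later than most of the brain. The forebrain and the hindbrain keep distinct sets of transcription factors from their early patterning onwards, and neurons of the 2 regions differ in their receptors, channels and transmitter systems.

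Genes carry sheep Ensembl identifiers, and 0 of them could be paired with the 35057 genes of the reference table at hand. Marker genes of granule cells, Purkinje cells, cortical neurons, glia, choroid plexus, blood and meninges were therefore not analysed here, and the tissue labels were not checked against them. The function, position and sequence of the genes named below are not given for the same reason. In libraries from bulk tissue, fewer cells of a type and less RNA per cell cannot be told apart.

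The motor cortex libraries held 10150099 to 18153142 counts and the cerebellum libraries 8782652 to 17847323. Lambs A, H and I (8782652 to 11964697 counts over both regions) were shallower than lambs B to G (13765297 to 18153142). A total of 16879 of 27054 genes had enough counts to be tested.

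Of the cerebellum libraries, 3 stood apart from the rest before any test of regions. Each library was set against the mean of the other 8 of its region, and the genes at least 4-fold away on the log2 CPM scale, that is, counts scaled to library size, were counted. The motor cortex libraries were that far away in 47 to 171 genes each and the cerebellum libraries of lambs A, B, C, E, F and I in 64 to 156. The cerebellum of lamb D was that far away for 288 genes, that of lamb G for 227 and that of lamb H for 3839. The main counts of region differences are therefore given over all 9 pairs and again over the 6 pairs without lambs D, G and H. The choice of these 3 pairs rests on the expression values themselves.

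Over all 9 pairs, 7230 of 16879 tested genes (42.8%) differed between the motor cortex and the cerebellum. The difference was nearly balanced, with 3565 genes (21.1%) favouring the motor cortex and 3665 (21.7%) favouring the cerebellum (edgeR quasi-likelihood test blocked on lamb, Benjamini-Hochberg adjusted p under 0.05). The genes higher in the motor cortex had a median log2 fold change of 0.96, and those higher in the cerebellum a median of -0.81, with a median SE of 0.18 over both. Among the genes called, 3071 were at least 2-fold apart, 1706 of them in favour of the motor cortex and 1365 of the cerebellum. At 4-fold the counts were 601 and 445, and at 8-fold 244 and 208. A stricter test, which asks whether the difference is larger than 2-fold and not only different from 0, called 1393 genes (8.25%; edgeR glmTreat), 787 on the motor cortex side and 606 on the cerebellum side.

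**Figure D1:**
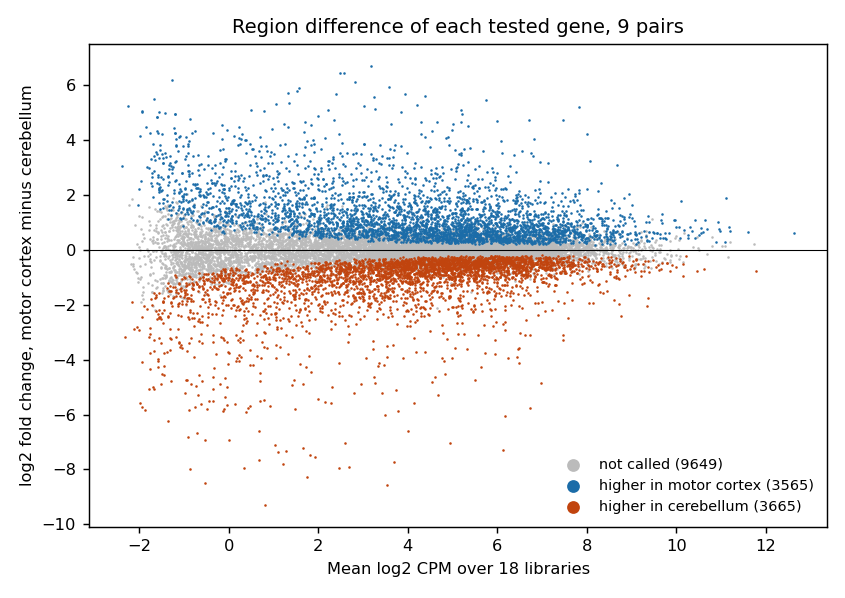
Log2 fold change (motor cortex minus cerebellum) of each of the 16879 tested genes over 9 pairs, against its mean log2 CPM over the 18 libraries. Grey points did not pass the test, blue points (3565) favoured the motor cortex and red points (3665) the cerebellum. The log2 fold changes of the called genes ran from -9.29 to 6.70, and the widest ones lay among genes of low level.

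Without lambs D, G and H, the 6 remaining pairs gave 10683 called genes of 16554 tested (64.5%), 5307 on the motor cortex side and 5376 on the cerebellum side. The median SE of a called gene was 0.10 over the 6 pairs against 0.18 over the 9. At least 2-fold apart were 3514 genes, and 2117 (12.8%) passed the test for more than 2-fold, 1256 on the motor cortex side and 861 on the cerebellum side. The 2 fits shared 6995 genes called with the same sign, which is 96.7% of the calls from 9 pairs and 65.5% of the calls from 6 pairs, and 0 genes were called with opposite signs. The 6 pairs are part of the 9, so this overlap is a description of the same animals.

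The depth groups gave very different numbers of calls. The 3 pairs of lambs A, H and I, which include lamb H, gave 109 called genes (0.696% of 15653 tested), 66 on the motor cortex side and 43 on the cerebellum side. The 6 pairs of lambs B to G gave 9925 (59.7% of 16619). All 109 were also called, with the same sign, over the 9 pairs. The median absolute log2 fold change over all tested genes was 0.56 in lambs A, H and I and 0.43 in lambs B to G. Depth, the number of pairs and lamb H cannot be told apart in this contrast.

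The genes that differed covered the whole range of expression. Tested genes were divided into 5 equal groups by their mean log2 CPM, and 37.9% of the lowest group, 47.3%, 42.9% and 40.9% of the middle groups and 45.2% of the highest group were called. Large differences were concentrated among low levels: 507 genes called and at least 4-fold apart lay in the lowest group, then 247, 127, 100 and 65 in the groups above it. The median absolute log2 fold change over all genes of a group was 0.75 in the lowest and 0.34 in the highest. Of the called genes in the highest group, 55.5% were higher in the motor cortex, against 44.6% to 49.5% in the other 4 groups.

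The region difference also showed in how each library spent its reads. The 1706 genes at least 2-fold higher in the motor cortex took 10.8% to 14.2% of the counts of the motor cortex libraries (median 12.7%). In the cerebellum the share was 7.70% (lamb D), 6.93% (lamb G) and 2.80% (lamb H), with 3.70% to 4.39% for the remaining 6 lambs. The 1365 genes at least 2-fold higher in the cerebellum took 1.64% to 2.14% of the motor cortex counts (median 1.79%). In the cerebellum the share was 4.19% (lamb H), 5.62% (lamb D) and 5.78% (lamb G), with 7.01% to 8.10% for the others. These genes were chosen on the same libraries, so the shares describe the size of the difference and support nothing further. Lambs D and G were the highest of the cerebellum libraries for the motor cortex genes, while lamb H was the lowest for both sets.

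Consistency over animals was counted pair by pair. Of the 7230 called genes, 4352 (60.2%) had the same sign in all 9 pairs, 2232 of them on the motor cortex side and 2120 on the cerebellum side. A further 2554 had 1 pair of the opposite sign, and in 1503 of these that pair was lamb H. The next most frequent was lamb G with 452, and the other 7 lambs accounted for 35 to 147 each. Counting levels in place of pairs, the 9 motor cortex and 9 cerebellum libraries did not overlap for 1879 genes (11.1% of those tested), 1017 on the motor cortex side and 862 on the cerebellum side. Over the libraries of the 6 pairs the corresponding counts were 2805 and 2754, 32.9% of the same tested genes. Fewer libraries separate more easily, and the pairs left out were chosen for their expression values. The rise from 11.1% to 32.9% is therefore no measure of a clearer region difference.

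To test the direction in an animal that had no part in the choice of genes, the fit was repeated on 8 pairs and the called genes were read in the pair left out. Of the genes called without it, 94.8% to 98.5% had the same sign in lambs A, B, C, D, E, F and I. Lamb G matched in 88.7% and lamb H in 57.3%. In lamb H, 61.7% of the motor cortex genes and 52.9% of the cerebellum genes had that sign. The slope of the left-out pair's difference on the fitted difference was 0.84 to 1.07 in lambs A, B, C, E, F and I. It was 0.59 for lamb D, 0.57 for lamb G and 0.60 for lamb H. Lamb D therefore matched nearly all directions at a smaller size, whereas lamb H matched far fewer of them.

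Across the 16879 genes, the log2 difference of 1 pair correlated with that of another at 0.73 to 0.87 among lambs A, B, C, E, F and I, a description across genes that share 2 library pairs each. Lamb D correlated with these 6 at 0.66 to 0.77, lamb G at 0.65 to 0.73 and lamb H at 0.29 to 0.42.

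Each library was also placed on an axis from motor cortex to cerebellum. The genes were those at least 2-fold apart in pairs other than the lamb's own, with lambs D, G and H never used to choose them (3365 to 3652 genes). The mean motor cortex of those lambs was set at 0 and their mean cerebellum at 1. All 9 motor cortex libraries lay between -0.06 and 0.10. The cerebellum libraries of lambs A, B, C, E, F and I lay between 0.90 and 1.04 (median 1.01). Lamb D lay at 0.55, lamb G at 0.60 and lamb H at 0.73, each between the 2 regions.

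The 3 libraries reached these positions in different ways. For genes higher in the motor cortex, the cerebellum of lamb D stood at 0.38 and that of lamb G at 0.42, so these genes were far above their usual cerebellar level. For genes higher in the cerebellum they stood at 0.79 and 0.84, closer to the other cerebellum libraries. Lamb H showed the reverse order, 0.86 for the motor cortex genes and 0.55 for the cerebellum genes. The spread of a library around its point on the axis, as the SD over all tested genes, was 1.61 log2 units for lamb H against 0.40 to 0.62 for the other 8 cerebellum libraries, lambs D (0.49) and G (0.47) included. In the motor cortex it was 0.43 to 0.60.

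**Figure D2:**
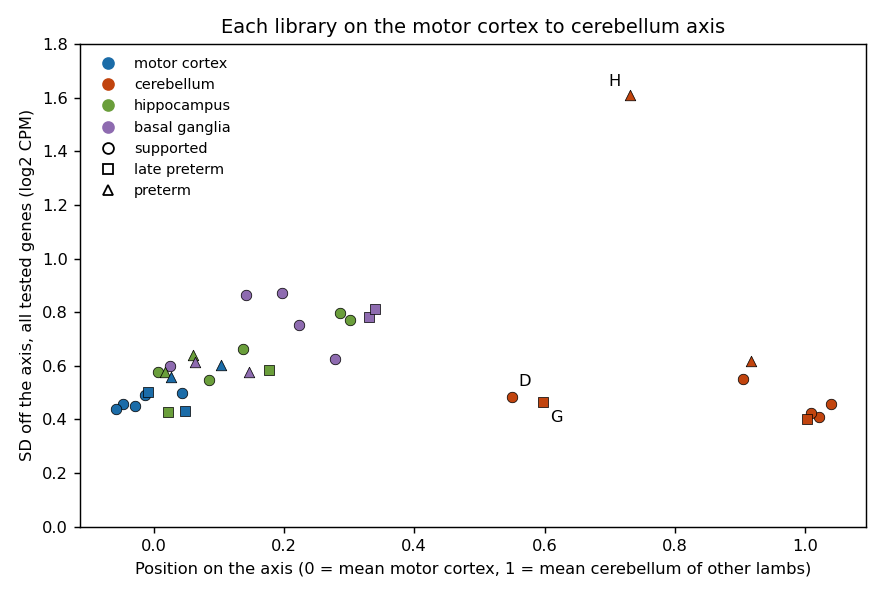
Position of each of the 36 libraries on the axis from motor cortex (0) to cerebellum (1) on the horizontal axis, and the SD of its log2 CPM off that axis over all tested genes on the vertical axis; colours mark regions and symbols mark arms. The motor cortex libraries lie at -0.06 to 0.10 and 6 cerebellum libraries at 0.90 to 1.04, while lambs D and G lie near the middle at a low SD and lamb H at 0.73 with an SD of 1.61.

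Hippocampus and basal ganglia libraries, which had no part in choosing the genes, lay near the motor cortex end. The 9 hippocampus libraries were at 0.007 to 0.30 (median 0.085) and the 9 basal ganglia libraries at 0.025 to 0.34 (median 0.20). Gene by gene, the mean hippocampus level was nearer to the motor cortex than to the cerebellum for 1577 of the 1706 genes at least 2-fold higher in the motor cortex (92.4%). The same held for 1258 of the 1365 genes at least 2-fold higher in the cerebellum (92.2%). In the basal ganglia the counts were 1419 (83.2%) and 1155 (84.6%). All 4 regions come from the same lambs.

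The genes with the widest difference were then followed into the lamb not used to choose them. Genes at least 8-fold apart in the other lambs (lambs D, G and H never used) were taken, and the level in the region where the gene is low was expressed as a percent of the level in the region where it is high. For the motor cortex genes (349 to 409 per lamb), the cerebellum held a median of 3.78% to 8.35% of the motor cortex level in lambs A, B, C, E, F and I. In lamb D the median was 34.3% (quartiles 22.6% and 49.8%) and in lamb G 33.0% (21.6% and 51.4%). In lamb H it was 7.79%, with wide quartiles of 1.12% and 30.4%. Of the 375 genes, the pair of lamb D had 93 less than 2-fold apart, lamb G 99 and lamb H 66. The corresponding count was 2 to 27 in each other lamb.

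For the cerebellum genes the same percent in lambs D and G stayed within the range of the other lambs, with only lamb B higher. For the 209 to 224 genes at least 8-fold higher in the cerebellum, the motor cortex level was a median of 2.46% to 7.49% of the cerebellum level over all 9 lambs, with 6.19% in lamb D and 6.26% in lamb G. Less than 2-fold apart were 5 of 220 genes (lamb D), 7 (lamb G) and 28 (lamb H), and 1 to 5 genes for each other lamb. In lambs D and G the motor cortex genes were therefore raised in the cerebellum library. The motor cortex libraries of lambs D and G held no matching rise of cerebellum genes. In the cerebellum, the median level of the cerebellum genes was 6.39 CPM in lamb D and 5.56 in lamb G. It was 7.21 to 11.2 CPM in lambs A, B, C, E, F and I and 5.42 in lamb H. How these tissue pieces were cut is not stated in the labels, and a part of tissue composition in these values was not tested.

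**Figure D3:**
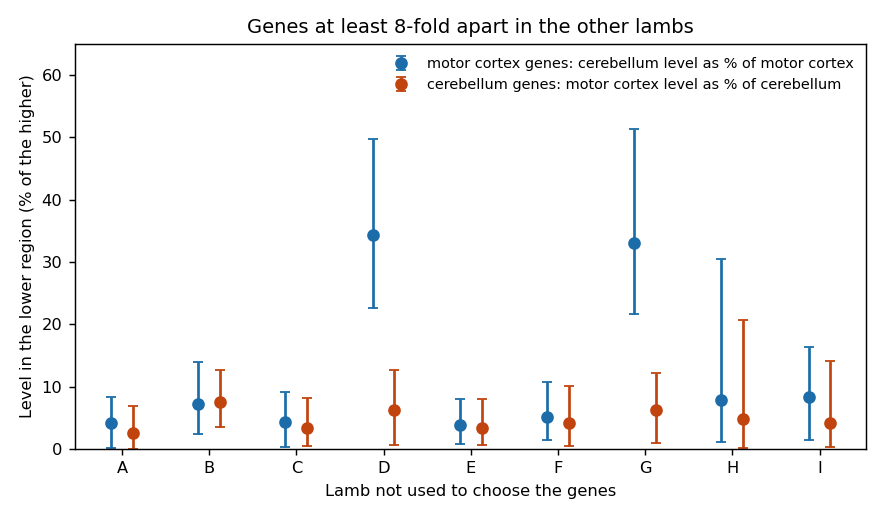
For each lamb, the level in the lower region as a percent of the level in the higher region, over genes at least 8-fold apart in the other lambs; points are medians and bars run from the lower to the upper quartile. For motor cortex genes (blue) the medians are 34.3% in lamb D and 33.0% in lamb G and at most 8.35% in the others, and for cerebellum genes (red) no median is above 7.49%.

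Genes seen in 1 region only were counted next. All 27054 genes of the count table were considered here, tested or not. In the 6 pairs without lambs D, G and H, 36 of these 27054 genes had a count in every motor cortex library and 0 counts in every cerebellum library. The opposite pattern was seen for 12 of the 27054. Over all 9 pairs the order turned, with 0 genes confined to the motor cortex and 2 to the cerebellum. A total of 0 counts over the 6 libraries does not show that a gene is silent there. The 36 and 12 genes were low, with a median over genes of 8.83 and 7 mean counts per library in the region that held them. Of the 36 motor cortex genes, 28 had counts in the cerebellum of lamb D (154 counts in sum, against 549 in its motor cortex), 25 in that of lamb G (193 against 520) and 8 in that of lamb H (15 against 403). Of the 12 cerebellum genes, 2 had counts in the motor cortex of lamb D, 1 in that of lamb G and 1 in that of lamb H, at 2 counts or fewer in sum. In the cerebellum itself, 11 of these 12 genes had a count in lamb D, 11 in lamb G and only 5 in lamb H. For the 36 motor cortex genes, the motor cortex of lambs D, G and H held a count for 35, 34 and 32. A count in at least 1 hippocampus library was seen for all 36 motor cortex genes and for 9 of the 12 cerebellum genes, and in at least 1 basal ganglia library for 36 and 11. A count in every hippocampus library was seen for 9 and 0 genes, and in every basal ganglia library for 10 and 0.

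The cerebellum of lamb H differed from the others in both directions and at all levels. Of the 3839 genes at least 4-fold from the average of the 8 other cerebellum libraries, 1375 were higher in lamb H and 2464 lower, 22.7% of tested genes. By level group the share was 25.2%, 23.5%, 21.0%, 22.9% and 21.2% from the lowest to the highest. The 1375 higher genes took 28.4% of the counts of this library, against 6.10% to 8.32% in the other 8 cerebellum libraries, and the 2464 lower genes took 1.86% against 14.6% to 18.5%. Both sets were chosen on this same library, which fixes the direction of these shares. They describe the size of the difference and support nothing further. Against each of the other 17 libraries of both regions, 278 genes were at least 4-fold higher in lamb H than in every one and 941 at least 4-fold lower. This library was also the shallowest of the 18, at 8782652 counts. RNA quality values were not in the labels, and their part in these differences was not tested.

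Lamb H also set most of the spread between cerebellum libraries. The median SD between lambs was 0.55 log2 units among cerebellum libraries and 0.28 among motor cortex libraries, and 80.3% of genes varied more among cerebellum libraries. Without lamb H the medians were 0.27 in both regions and 47.2% of genes varied more in the cerebellum.

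As no symbols were at hand, 2 genes per direction were named by rule: among genes called with the same sign in all 9 pairs, the 1 with the largest change that had at least 10 counts in every library of its lower region, and the 1 with the highest mean CPM among genes at least 4-fold apart. Levels below are CPM scaled over all 36 libraries.

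ENSOARG00000017551 had the largest change in favour of the motor cortex among the genes that met this rule, and the highest log2 fold change over all called genes was 6.70. Its motor cortex level was 67.8 CPM at the lowest (lamb G), 108 at the median and 161 at the highest (lamb D). In the cerebellum it was 0.895 to 1.81 CPM in 7 lambs, 29.7 in lamb G and 43.1 in lamb D, with a median of 1.62. The 2 regions did not overlap, and lamb H was as low as the other cerebellum libraries, at 1.49. The log2 fold change was 5.29 ± 0.74 (SE, edgeR adjusted p = 0.000222) over 9 pairs and 6.19 ± 0.16 (edgeR adjusted p = 9.38e-09) over the 6, with pair differences from 1.17 in lamb G to 6.65 in lamb E. In the hippocampus it ran from 7.68 to 117 CPM (median 90.2) and in the basal ganglia from 10.1 to 76.3 (median 21.8).

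ENSOARG00000010603 had the highest mean CPM among the genes at least 4-fold higher in the motor cortex. Its motor cortex level ran from 757 CPM (lamb I) over a median of 1198 to 1954 (lamb G). In the cerebellum it was 7.97 to 26.0 CPM in lambs A, B, C, E, F and I, 84.9 in lamb H, 398 in lamb G and 913 in lamb D. The regions overlapped, since the cerebellum of lamb D lay above the motor cortex of lamb I, but the motor cortex was higher in each of the 9 pairs. The log2 fold change was 5.20 ± 0.80 (edgeR adjusted p = 0.00039) over 9 pairs and 6.36 ± 0.24 (edgeR adjusted p = 6.99e-08) over the 6. With lambs A, H and I alone it was 5.56 and no longer called (edgeR adjusted p = 0.0754). The hippocampus level was 143 to 1839 CPM (median 779) and the basal ganglia level 130 to 1085 (median 530).

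ENSOARG00000008845 had the largest change in favour of the cerebellum among the genes that met the rule, while the extreme over all called genes was -9.29. Its motor cortex level was 3.44 CPM at the lowest (lamb G), 4.36 at the median and 33.8 at the highest (lamb B), the next highest being 7.82 in lamb E. Its cerebellum level was 49.8 CPM in lamb H, 641 in lamb I and 898 to 1637 in the other 7 lambs, with a median of 1051. The regions did not overlap, and lambs D (973) and G (898) lay far nearer to the other cerebellum libraries than lamb H. The log2 fold change was -7.30 ± 0.68 (edgeR adjusted p = 1.93e-05) over 9 pairs and -7.48 ± 0.52 (edgeR adjusted p = 1.85e-06) over the 6. With lambs A, H and I alone it was -6.55 and no longer called (edgeR adjusted p = 0.126). The hippocampus was at 2.43 to 7.94 CPM and the basal ganglia at 2.69 to 6.41 in 8 lambs, with 213 in lamb C.

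ENSOARG00000005434 had the highest mean CPM among the genes at least 4-fold higher in the cerebellum. Its motor cortex level ran from 8.04 CPM (lamb A) over a median of 14.2 to 41.6 (lamb B). In the cerebellum it was 465 CPM in lamb H, 545 in lamb D, 741 in lamb G and 812 to 967 in the other 6. The regions did not overlap, and lambs D, G and H were the lowest cerebellum libraries. The log2 fold change was -5.75 ± 0.31 (edgeR adjusted p = 6.31e-07) over 9 pairs and -6.00 ± 0.33 (edgeR adjusted p = 4.86e-07) over the 6. Lamb B, the highest motor cortex library for this gene and for ENSOARG00000008845, stood at 0.16 on the axis for cerebellum genes, against -0.08 to 0.06 in the other motor cortex libraries.

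**Figure D4:**
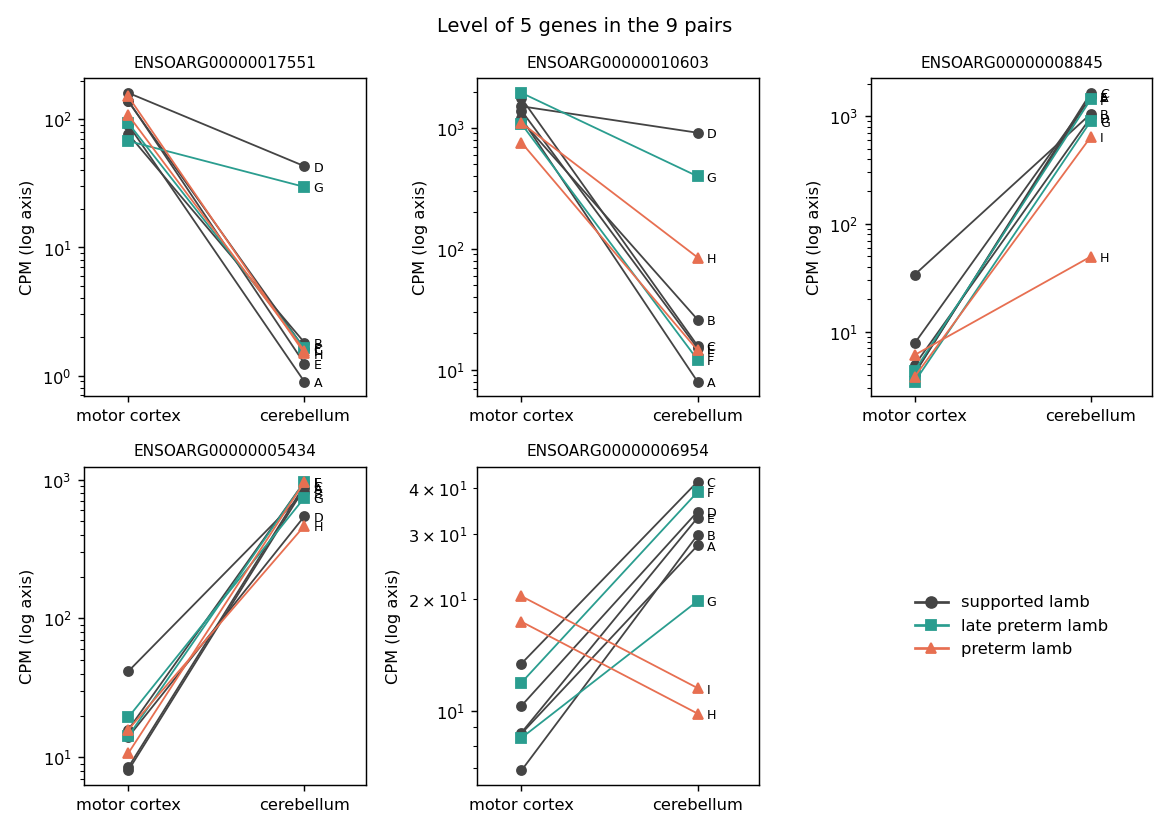
CPM of the 5 named genes (log axis) in the motor cortex and the cerebellum of each lamb, with a line joining the pair and the letter of the lamb at the cerebellum value; colours and symbols mark arms. In the panels of ENSOARG00000017551 and ENSOARG00000010603 the lines of lambs D and G end above those of the other lambs, in the panel of ENSOARG00000008845 the line of lamb H ends lowest, and in the panel of ENSOARG00000006954 the lines of lambs H and I run the opposite way to the rest.

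Whether the region difference itself depended on the arm was asked with a region by arm term. Supported and preterm lambs differed in 1 gene (0.00592%), with 4094 genes at an unadjusted p under 0.05 and 1179 called by DESeq2. Supported and late preterm lambs differed in 0 genes in edgeR (242 at an unadjusted p under 0.05) and in 0 in DESeq2. Late preterm and preterm lambs differed in 0 genes in edgeR, with 3832 at an unadjusted p under 0.05, and in 287 in DESeq2. In simulated counts, edgeR found 0% of added 2-fold changes in every contrast. Of added 4-fold changes it found 24% for supported against preterm lambs and 0% for the other contrasts. The counts of 0 therefore cannot show that the region difference was alike between arms.

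These counts moved with the lambs left in. Without lamb H, the unadjusted counts of the 3 contrasts were 1503, 1687 and 1463 in the same order, with 0 genes called in each by edgeR. For supported against late preterm lambs, a contrast that holds neither preterm lamb, the unadjusted count was likewise 1703 without lamb I, with 0 called. Without lamb I, lamb H is the only preterm animal and is taken to vary as the other arms do. Its cerebellum library had a spread off the axis of 1.61 log2 units, against 0.40 to 0.62 in the other cerebellum libraries. Calls against the preterm arm in that fit rest on 1 library pair and cannot be read as a difference between arms. Without lambs D, G and H, 66 genes differed between supported and preterm lambs. The log2 difference, motor cortex minus cerebellum, was shifted towards the motor cortex in the supported lambs for 27 of them and towards the cerebellum for 39. That comparison rests on lamb I alone for the preterm arm. The other 2 contrasts then gave 0 calls in edgeR, with 920 (supported against late preterm) and 1354 (late preterm against preterm) genes at an unadjusted p under 0.05, and DESeq2 was not run on these pairs.

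Within the arms, the motor cortex and the cerebellum differed in 6262 genes (37.1%) in the supported lambs, 2998 on the motor cortex side and 3264 on the cerebellum side. The late preterm lambs gave 828 (4.91%), 266 and 562, and the preterm lambs 3754 (22.2%), 2035 and 1719. Without lambs D, G and H the counts were 10024, 4239 and 3620, the last 2 from 1 lamb each. The arms held 5, 2 and 2 lambs, and a difference between these counts is no test of a difference between arms.

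The gene that passed, ENSOARG00000006954, changed direction between arms. In the motor cortex it was at 8.66, 6.88, 13.4, 10.3 and 8.71 CPM in supported lambs A to E, at 11.9 and 8.43 in late preterm lambs F and G, and at 17.4 and 20.4 in preterm lambs H and I. In the cerebellum it was at 28.0, 29.9, 41.7, 34.6 and 33.3 CPM in the supported, 39.1 and 19.8 in the late preterm and 9.81 and 11.5 in the preterm lambs. Both preterm lambs were thus above the other 7 in the motor cortex and below them in the cerebellum, without overlap in either region. The gene was picked by its call on these same values, so the separation adds no support to it. The share of all genes with this pattern was not counted. The cerebellum value of lamb H comes from the library that stood farthest from the others.

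In lambs A to G the cerebellum held more of ENSOARG00000006954, with pair differences of -1.24 to -2.10 log2 units. In both preterm lambs the motor cortex held more, by 0.82 and 0.84. Between supported and preterm lambs the region difference changed by -2.67 ± 0.25 log2 units (SE, edgeR adjusted p = 0.0272). The call was lost when any of lambs A to H was left out (edgeR adjusted p = 0.0799 to 0.195 for lambs A to G). The value stayed between -2.60 and -2.72 in these fits. It was -2.64 without lamb I and -2.69 without lambs D, G and H. Both of the last settings leave 1 preterm lamb, so a call there adds no support. The preterm lambs were also shallower than lambs B to G, and the part of depth in this difference was not tested.

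The size of the region difference was last set beside those between the motor cortex and the other 2 regions, with 1 value per lamb. The genes at least 4-fold apart between a lamb's own motor cortex and its own cerebellum numbered 1561, 1253, 1547, 561 and 1466 in lambs A to E, 1235 and 616 in lambs F and G, and 4593 and 1170 in lambs H and I. Lamb H was far the highest, and lambs D and G were the lowest. Between motor cortex and hippocampus the counts were 113 to 866 (median 301), and between motor cortex and basal ganglia 244 to 874 (median 537).

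The cerebellum count was above the hippocampus count in 9 of 9 lambs, by 1178 genes on average (exact paired permutation test, two-sided, p = 0.00391, the smallest that 9 pairs allow; 0.00781 adjusted over the 2 comparisons). It was above the basal ganglia count in 7 of 9 lambs, by 1005 on average (exact p = 0.0195, adjusted p = 0.0195). The exceptions were lambs D (561 against 874) and G (616 against 867). Without lamb H alone the mean differences were 768 over the hippocampus (8 of 8 lambs, exact p = 0.00781) and 587.5 over the basal ganglia (6 of 8 lambs, exact p = 0.0391). Without lambs D, G and H the mean differences were 897 and 877, in 6 of 6 lambs each (exact p = 0.0313, the smallest that 6 pairs allow). The 3 comparisons share the motor cortex library of each lamb. All counts were taken over the 16879 genes tested between motor cortex and cerebellum. The filter for these genes used no hippocampus or basal ganglia library. Genes found only in those regions could thus not be counted, whereas genes found only in the cerebellum could. This favours the cerebellum in both tests, by an amount that was not tested.

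**Figure D5:**
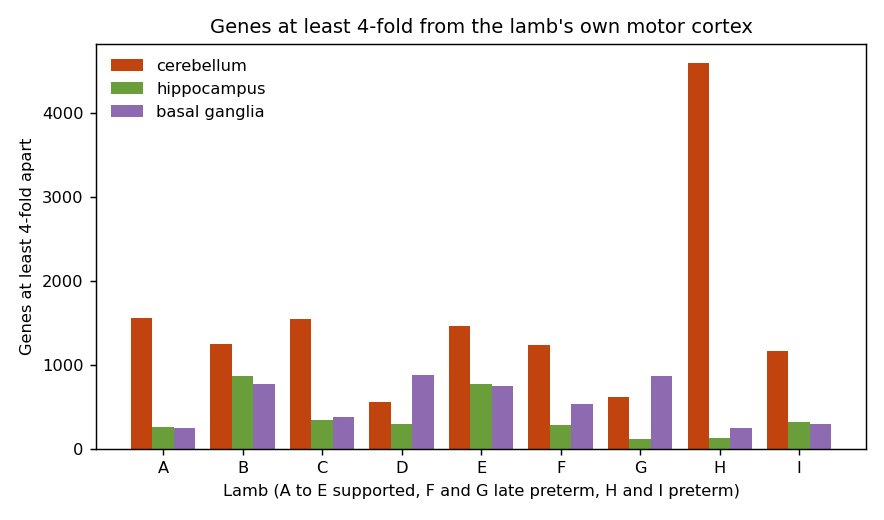
Number of genes at least 4-fold apart between a lamb's own motor cortex and its cerebellum (red), hippocampus (green) or basal ganglia (purple), by lamb. Genes were those tested between motor cortex and cerebellum. The cerebellum bar is the tallest in 7 of 9 lambs and reaches 4593 in lamb H; in lambs D and G it is 561 and 616, below the basal ganglia bar.

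The deficit in lambs D and G lay mostly on the motor cortex side, with a smaller one on the cerebellum side. With scaling over the 18 libraries, 152 of 557 genes at least 4-fold apart in lamb D and 180 of 610 in lamb G were higher in the motor cortex. In lambs A, B, C, E, F and I the motor cortex side held 693 to 921 genes and the cerebellum side 462 to 646, against 405 and 430 on the cerebellum side in lambs D and G. Lamb H had 2836 and 1702.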

How the data were processed

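The deposited table holds read counts per gene for 36 libraries, 1 column each. Per the series' design text, the authors used fastp for adapter trimming, SeqKit for quality checks and STAR for alignment to the sheep genome of Ensembl release 107, and took STAR's gene counts without regard to strand. Reads of overlapping or antisense genes can therefore not be told apart, and near-identical copies may share or lose reads. Tool versions were not stated there. Columns were matched to samples by name.

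Counts were analysed in R 4.3.3 with edgeR 4.0.16: filterByExpr (minimum count 10), TMM factors, quasi-likelihood F-test, lamb as a block, Benjamini-Hochberg adjustment over all tested genes, threshold 0.05. Sizes beyond 2-fold were tested with glmTreat. Log2 CPM used a prior count of 2. Arms shared 1 estimate of the spread. DESeq2 1.42.0 was an alternative, as were other scaling factors, no filter and sets of lambs. The scripts were tested on simulated data. The pairing comes from the animals: both regions were taken from the same lamb, and deviations from the arm means correlated at -0.02 to 0.37 within a lamb (lambs of a 2-lamb arm share 1 value). No motor cortex or cerebellum library copied another of its region: a chi-square comparison of 72 same-region library pairs gave 7.98 to 328 per degree of freedom. Libraries of different regions were not compared in this way.

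Lambs are separate animals, so the spread is between animals. Depth was 8782652 to 18153142 counts, and the labels name no batch. At 0 were 3698 genes over all 18 libraries. The libraries, the marker lists and the rule for named genes were chosen with earlier results of these data known. The rule took, per direction, the largest change among eligible genes and the highest mean CPM as described in the text, and for the region by arm term the called gene with the largest value. The marker lists were not used, since they name symbols.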

Additional observations from a re-analysis of the deposited data

Results flagged for a closer look

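The values of 9 libraries or lambs were examined in 42 groups, and in 12 of them the highest or lowest library lay farther from the nearest other than the 95% value of Dixon's test allows (a gap of 0.493 of the range). Chance alone sets about 1 in 20 such groups apart, and many of the measures share libraries. The cerebellum of lamb H accounted for 6 of the 12. It had a TMM scaling factor of 0.773 (next 1.02), held 5.18% of its counts in its 10 highest genes (next 3.59%), had an off-axis SD of 1.61 (next 0.619) and had 3839 genes at least 4-fold from the average of the 8 others (next 288). It was at least 4-fold from its own motor cortex in 4593 genes (next 1561) and kept the sign of 57.3% of the genes called without it (next 88.7%).

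The other values were single levels and 1 share. ENSOARG00000010603 was at 913 CPM in the cerebellum of lamb D (next 398). ENSOARG00000008845 was at 33.8 CPM in the motor cortex of lamb B (next 7.82), at 213 CPM in the basal ganglia of lamb C (next 6.41) and at 7.94 CPM in its hippocampus (next 4.94). ENSOARG00000005434 was at 41.6 CPM in the motor cortex of lamb B (next 19.4). The motor cortex of lamb G held 4.37% of its counts in its 10 highest genes (next 3.92%).

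The region difference of ENSOARG00000006954 differed between supported and preterm lambs, with a region by arm interaction of -2.67 log2 units (edgeR adjusted p = 0.0272); its loss when single lambs are left out is given with the result.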

How the results depend on the processing

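Over 9 pairs the number of called genes (7230) stayed within 1.5 times with DESeq2 (8143), RLE, upper-quartile or no scaling factors, no filter on low counts, all 36 libraries in the fit and the supported lambs alone (10176). Without the replicate block, so that the pairing by lamb is ignored, 6863 genes were called, 3244 higher in the motor cortex. The block changed the call count by more than 1.5 times only for the region by arm term of supported against preterm lambs, where 59 genes were called without it. With 1 lamb left out at a time, called genes numbered 6020 (lamb E out) to 10979 (lamb H out), 2991 to 5460 higher in the motor cortex and 2926 to 5519 higher in the cerebellum. Without lambs D, G and H, 2117 genes were beyond 2-fold by the test, against 1393. With lambs A, H and I only, 109 genes were called, 66 and 43 in the 2 directions, all 109 at least 2-fold apart, and 0 were beyond 2-fold by edgeR's test (1289 at an unadjusted p under 0.05; no other tool was run on this test). There the difference of ENSOARG00000006954 turned from -1.22 to 0.033, the set holding both lambs in which its direction is opposite.

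For the region by arm term, supported against preterm lambs gave 1 call, 1179 in DESeq2, 66 without lambs D, G and H, and 0 to 9472 with 1 lamb left out. Late preterm against preterm lambs gave 0, 287 in DESeq2 and 0 to 9343 with 1 lamb left out. Both high values were without lamb I, where lamb H alone stands for the preterm arm, and cannot be read as a difference between arms. Where edgeR called 0 genes with 1 lamb left out, 1503 to 3214 genes had an unadjusted p under 0.05 in the former contrast and 1076 to 2918 in the latter, and DESeq2 was not run. Within arms, added after seeing the data, the supported count was 4178 to 10155 with 1 lamb left out and 10024 without lambs D, G and H. The late preterm count was 0 (without lamb F, with 1609 at an unadjusted p under 0.05 in edgeR) to 5915 (without lamb H) and 4239 without lambs D, G and H. The preterm count was 2369 to 10199. Counts of cerebellum against other regions kept their direction and call in all 12 alternatives for each region. Where both preterm or both late preterm lambs reduce to 1, that lamb is assumed to vary like the others. The cause of these changes was not tested.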
